A study of Mus musculus with 10 samples.

Results

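The genes described here encode the secreted and membrane-bound metalloproteinases that cut extracellular matrix, together with their inhibitors. They were taken from the table of genes by symbol alone, and 51 of 52550 genes had a symbol of these families. There were 4 tissue inhibitors of metalloproteinases (Timp), 23 matrix metalloproteinases (Mmp), 19 Adamts proteases, which carry thrombospondin-type repeats beside the protease domain, and 5 Adamtsl genes, whose proteins resemble the Adamts proteases but lack that domain. RNA was sequenced from embryonic fibroblasts of C57BL/6 mice, primary cells grown from embryos of embryonic day 14 and used at passage 3, with 5 female and 5 male libraries. Both sexes had the same strain, stage, passage and culture medium, and the labels name no treatment. Whether the libraries of 1 sex stem from different embryos or dishes is not in the labels. The p-values therefore reflect the spread among these libraries alone, and that spread could be technical.

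Collagens, fibronectin and proteoglycans outside the cell are turned over largely by these enzymes. Most Mmp and Adamts proteins are made as inactive precursors, and their prodomain has to be removed before they cut. The Timp proteins bind the active site and block it, so the enzymes made by a fibroblast act against the inhibitors made by the same cell. Fibroblasts are known as a main source of both in connective tissue.

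Unique exon reads came to between 26728281 and 32744611 in female libraries and between 22588200 and 29910227 in male libraries. All 10 fibroblast markers examined were at 1 CPM or more (reads scaled to library size), and their summed level was 19890–25013 CPM in female and 19404–22996 CPM in male libraries. Markers of other cells were lower: 6 of 8 macrophage markers reached 1 CPM, with sums of 46.1–122 CPM in female and 57.5–90.2 CPM in male libraries. No value was found for Itgam, which is 1 of these 8. Of the 9 cartilage and bone markers 4 reached 1 CPM, with sums of 59.5–91.9 CPM in female and 69.5–114 CPM in male libraries. Of 5 neural markers 4 reached 1 CPM, of 5 endothelial markers 3, of 5 skeletal muscle markers 1, of 6 epithelial markers 3 and of 5 osteoclast markers 1. The summed markers of neural cells were at 147–244 CPM in female and 164–226 CPM in male libraries, of endothelial cells at 104–165 CPM in female and 91.4–124 CPM in male libraries, and of skeletal muscle at 93.7–164 CPM in female and 92.6–132 CPM in male libraries. Epithelial markers were at 79.0–118 CPM in female and 83.3–151 CPM in male libraries, and osteoclast markers at 45.7–70.8 CPM in female and 34.3–71.4 CPM in male libraries. Single genes carried most of several sums. Over the 10 libraries Des averaged 120 CPM (muscle), Nes 168 (neural), Krt19 94.3 (epithelial) and Itgb3 53.6 (osteoclast). Likewise Lyz2 averaged 52.3 CPM (macrophage) and Sox9 53.2 CPM (cartilage and bone). Among the endothelial markers Flt1 and Kdr averaged 78.8 and 31.7 CPM. By contrast, Myod1, Myog, Epcam, Cdh1 and Pecam1 averaged 0.0373, 0.0509, 0.204, 0.171 and 0.141 CPM. The 4 neutrophil markers stayed at or below a summed 0.211 CPM in female and 0.205 CPM in male libraries, with S100a9 at 0. In RNA from whole cultures, fewer cells of a type and less RNA per cell cannot be told apart.

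Levels are given as RPKM, unique exon reads scaled by exon length and by library size, which allows genes of different length to be set side by side. Of the 51 genes, 30 averaged 1 RPKM or more over the 10 libraries, among them 3 of 4 Timp, 13 of 23 Mmp, 10 of 19 Adamts and 4 of 5 Adamtsl genes. Only 9 reached 10 RPKM, and 17 stayed under 0.1 RPKM. The filter on low counts kept 36 genes for testing (3 Timp, 15 Mmp, 13 Adamts and 5 Adamtsl). The other 15 had between 0 and 93 unique exon reads over all 10 libraries together and at most 0.152 RPKM, and Mmp7, which encodes matrilysin, had 0 reads, a count that allows up to 3 reads over the 10 libraries or 0.0101 RPKM (counting error only).

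**Figure D1:**
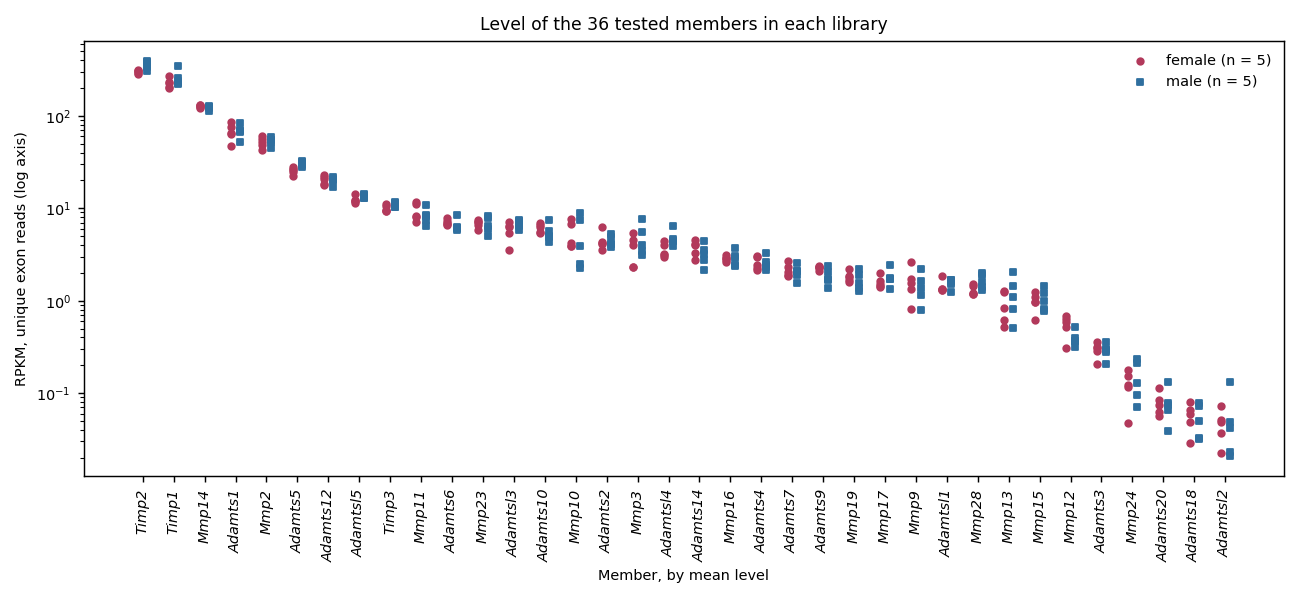
Level of each of the 36 tested genes in each library, as RPKM from unique exon reads on a log axis, with female libraries as circles to the left of male libraries as squares and genes ordered by mean level. Timp2 and Timp1 stand at the top, Mmp14 leads the proteases, and the order spans from 328 RPKM for Timp2 to 0.0501 RPKM for Adamtsl2.

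Inhibitor RNA was the most abundant of the families, and by unique reads Timp2 and Timp1 made up nearly all of it. Timp2, on the minus strand at chr11:118301069-118355740 of mm10, encodes an inhibitor that also forms a complex with Mmp14 at the cell surface through which pro-Mmp2 is activated. Its level was 292, 304, 305, 316 and 280.4 RPKM in female libraries 1 to 5, against 308, 357, 397, 338 and 386 RPKM in male libraries 1 to 5. The highest female library lay above the lowest male library, so the sexes overlapped, but every female library was under the male mean. Female libraries averaged 299.5 ± 13.5 RPKM and male libraries 357 ± 35.99 RPKM (SD, n = 5 each).

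Timp1, at chrX:20870166-20874735 on the plus strand, encodes a broad inhibitor of secreted metalloproteinases. It stood at 224, 201, 205, 231 and 272 RPKM in female libraries, against 220.0, 228, 235, 256 and 349 RPKM in male libraries. Male replicate 5 was well above the other male libraries, and the sexes overlapped. Timp3, at chr10:86300372-86349506 on the plus strand, encodes the inhibitor that stays bound to the matrix and also blocks Adamts proteases. From unique reads it had 9.64, 10.5, 9.37, 9.34 and 11.1 RPKM in female libraries, against 11.7, 10.2, 10.3, 11.3 and 11.01 RPKM in male libraries. The ranges overlapped here as well. Timp4 was near 0, with 9 unique exon reads over the 10 libraries and no library above 0.0124 RPKM.

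The place of Timp3 among the inhibitors depended on which reads were counted. Unique reads were 15.9% of its total exon reads and 69.1% of those of Timp1, but nearly all of those of Timp2. Timp1 shares its locus with Syn1, Timp3 with Syn3 and Timp4 with Syn2, each a synapsin gene on the opposite strand, and the sources used here do not say whether reads were counted by strand. Timp1 and Timp3 had no unique intron reads. With total exon reads, which include those that fit more than 1 place or gene, Timp3 stood at 52.7, 58.7, 52.2, 52.1 and 59.8 RPKM in female libraries, against 58.0, 55.5, 55.3, 58.8 and 61.0 RPKM in male libraries. Its mean was 56.4 RPKM by total and 10.4 RPKM by unique exon reads, and its place in the order of the 51 genes was 5 by total and 9 by unique reads. Timp1 averaged 300.4 RPKM by total and 242 RPKM by unique exon reads, which put it above Timp2 at 282 RPKM by total reads. With nearly all its reads unique, Timp2 was at 328 RPKM by unique reads, as total reads are scaled to larger library sizes. Syn1 and Syn3 themselves had only 1546 and 300 total exon reads over the 10 libraries, against 60000 and 23661 unique exon reads of Timp1 and Timp3.

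Among the proteases the same limit touched Mmp19, which encodes a secreted metalloproteinase and overlaps Gm47093 and Tmem198b on the other strand. Its unique share was 33.4%, and it averaged 4.49 RPKM by total and 1.74 RPKM by unique exon reads.

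**Figure D2:**
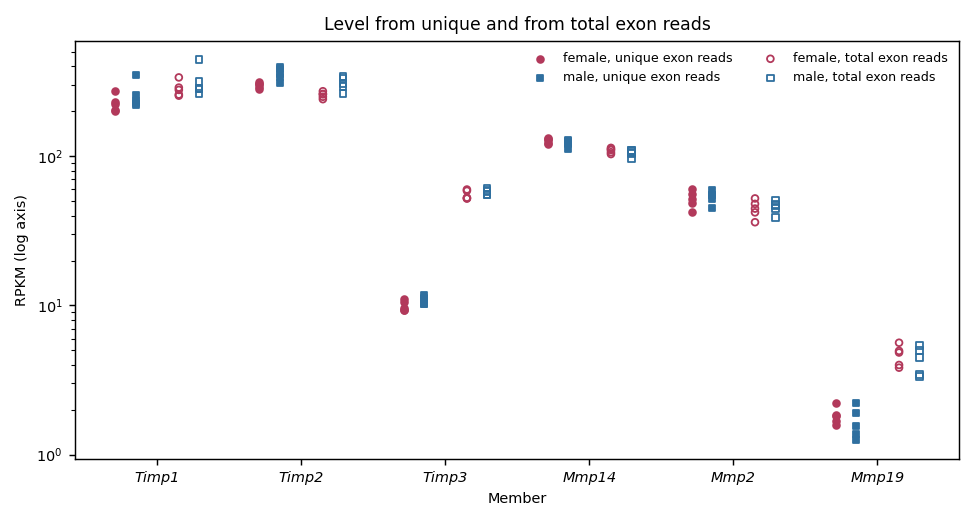
Level in each library from unique exon reads (filled) and total exon reads (open) for the 3 detected Timp genes and 3 proteases, as RPKM on a log axis, with female circles left of male squares. Timp3 and Mmp19 stand far higher by total reads (56.4 and 4.49 RPKM) than by unique reads (10.4 and 1.74 RPKM), whereas Timp2, Mmp14 and Mmp2 do not.

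A pair of proteases held most of the Mmp RNA. Mmp14, at chr14:54431612-54445364 on the plus strand, encodes the membrane-anchored collagenase that activates pro-Mmp2, and it was the most abundant and the steadiest protease transcript. It had 129, 132, 121, 123 and 129 RPKM in female libraries, against 128, 123, 113, 126 and 121 RPKM in male libraries. The sexes overlapped and the highest library was 1.18 times the lowest. Mmp2, at chr8:92827291-92853420, encodes gelatinase A. It had 56.0, 60.6, 42.3, 48.8 and 51.8 RPKM in female libraries, against 59.1, 52.0, 45.0, 54.8 and 54.6 RPKM in male libraries, with overlapping ranges and replicate 3 lowest in each sex. Mmp14 alone made up 58.9% ± 2.38 of the summed Mmp RPKM in female and 57.6% ± 2.07 in male libraries (SD, n = 5 each), and with Mmp2 the share was 82.8% ± 1.16 in female and 82.5% ± 1.68 in male libraries.

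The next Mmp genes were far lower. Mmp11, which encodes a metalloproteinase activated inside the cell by furin, had 11.2, 11.8, 8.30, 7.08 and 8.04 RPKM in female libraries, against 10.8, 8.47, 6.502, 7.52 and 8.35 RPKM in male libraries. Mmp23, which encodes a small enzyme with a membrane anchor at its amino end, had 6.66, 5.79, 7.11, 7.05 and 7.47 RPKM in female libraries, against 7.77, 6.04, 5.01, 6.43 and 8.25 RPKM in male libraries. For each of these genes the sexes overlapped. The membrane-type genes Mmp16, Mmp17 and Mmp15 averaged 2.88, 1.69 and 1.02 RPKM, while Mmp24 stayed at 0.136 RPKM and Mmp25 did not reach the filter.

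Summed over the family, Timp RNA exceeded Mmp RNA in every library. By unique reads the ratio of summed RPKM was 2.49 ± 0.229 in female and 2.97 ± 0.501 in male libraries, and by total reads 3.17 ± 0.257 in female and 3.69 ± 0.644 in male libraries (SD, n = 5 each). The ranges of the sexes overlapped for both: by unique reads they ran over 2.18–2.73 in female and 2.31–3.49 in male libraries. All 51 genes together took 0.322–0.354% of unique exon reads in female and 0.359–0.380% in male libraries. These last ranges did not overlap, and Timp2, with a mean of 1279 CPM, carried more reads than any other gene in the sum. Timp2 itself had 1093–1231 CPM in female and 1199–1545 CPM in male libraries. The sum was not computed without Timp2, so the separation is not shown for the other genes. By summed RPKM each family overlapped between the sexes. Timp ran over 515–564 in female and 540–746 in male libraries, and Mmp over 196–236 and 186–233. Adamts ran over 119–165 in female and 128–164 in male libraries, and Adamtsl over 20.5–25.8 and 25.3–28.2. No test is given for such sums.

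Among the Adamts proteases Adamts1 and Adamts5 led. They lie next to each other on the minus strand of chromosome 16, at chr16:85793827-85803113 and chr16:85858170-85901125. Adamts1, a versican- and aggrecan-cutting protease, had 74.9, 86.7, 62.9, 64.7 and 47.0 RPKM in female libraries, against 82.6, 70.5, 68.4, 66.6 and 51.7 RPKM in male libraries. Replicate 5 was the lowest library in each sex, and the sexes overlapped. Adamts1 made up 46.8% ± 5.08 of summed Adamts RPKM in female and 46.6% ± 3.79 in male libraries (SD, n = 5 each). Adamts5, the main aggrecanase of mouse cartilage, had 24.8, 28.3, 25.9, 26.7 and 22.2 RPKM in female libraries, against 30.1, 27.9, 32.5, 29.7 and 31.9 RPKM in male libraries. A single female library, replicate 2, lay above the lowest male library, and all female libraries were under the male mean.

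Adamts12, which encodes a protease known to cut cartilage oligomeric matrix protein, followed with 18.2, 18.1, 20.6, 22.8 and 21.6 RPKM in female libraries, against 17.0, 20.9, 20.1, 21.9 and 20.2 RPKM in male libraries. Its relative Adamts7 averaged 2.09 RPKM. Adamts6 had 7.01, 6.60, 7.78, 6.76 and 7.37 RPKM in female libraries, against 8.48, 6.05, 5.78, 6.15 and 6.33 RPKM in male libraries. For Adamts12 the ranges overlapped throughout, and for Adamts6 male replicate 1 was the highest library while the other male libraries lay under every female library. Adamts10, which acts on fibrillin microfibrils, averaged 5.81 RPKM. Of the procollagen N-proteinases, which trim the amino end of fibrillar procollagens, Adamts2 and Adamts14 averaged 4.46 and 3.47 RPKM and Adamts3 only 0.292 RPKM. Adamts13, which cuts von Willebrand factor in blood, had 7 reads in all.

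The Adamtsl genes were led by Adamtsl5, with 11.9, 14.2, 12.04, 11.3 and 12.3 RPKM in female libraries, against 12.8, 14.4, 12.8, 13.4 and 13.8 RPKM in male libraries. Only female replicate 2 stood within the male range. Adamtsl3 averaged 6.26 RPKM, Adamtsl4, whose protein binds fibrillin, 4.16 RPKM and Adamtsl1 1.49 RPKM, and Adamtsl2, another microfibril-binding protein, was at 0.0501 RPKM with 109 reads in all.

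Compared between the sexes with edgeR's quasi-likelihood test, fitted on all 13615 tested genes, 0 of the 36 tested genes passed a Benjamini-Hochberg adjusted p of 0.05, where 16 genes or 0.118% of all tested genes did (0.0441% higher and 0.0734% lower in female cells). DESeq2 on the same genes also called 0 of the 36, and 87 or 0.639% of all tested genes. At an unadjusted p under 0.05 edgeR gave 7 of the 36 (2 higher and 5 lower in female cells), beside 1011 genes or 7.43% of all tested genes (2.99% higher and 4.44% lower in female cells), and DESeq2 gave 6 of the 36, beside 1069 or 7.85% of all tested genes. No gene of these families had ranges of CPM that were separate between the sexes, which was so for 1.35% of all tested genes. The log2 fold changes, female minus male, ran from -0.42 for Adamtsl4 to 0.47 for Mmp12, with 19 negative and 17 positive and a median of -0.01, beside a median of 0.00 and an interquartile range of -0.07 to 0.07 over all tested genes.

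By role, all 3 tested Timp genes and all 5 Adamtsl genes had negative values, with medians of -0.19 and -0.17, where 48.7% of all tested genes were negative. Of these, Adamtsl2 had -0.17 ± 0.50 (SE; edgeR adjusted p = 0.971) from few reads, and turned to 0.48 without male replicate 1, to 0.00 without female replicate 5 and to 0.05 with unique gene reads. The 15 Mmp genes had 8 negative values and a median of -0.02, and the 13 Adamts genes had 3 negative values and a median of 0.04. None of these counts contains a gene that passed the adjusted threshold.

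Timp2 and Adamts5 had the smallest p-values. For Timp2 the log2 fold change was -0.25 ± 0.06 (SE; edgeR adjusted p = 0.286), and for Adamts5 it was also -0.25 ± 0.06 (SE; edgeR adjusted p = 0.270). Adamts5 averaged 25.6 ± 2.30 RPKM in female and 30.4 ± 1.81 RPKM in male libraries (SD, n = 5 each). Both passed in edgeR when no filter on low counts was used, with adjusted p = 0.0299 for Timp2 and 0.0300 for Adamts5 over 24850 genes, and over all 19 alternatives the adjusted p ranged from 0.0299 to 0.665 for Timp2 and from 0.0300 to 0.644 for Adamts5.

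Adamtsl4 had 2.94, 3.12, 4.03, 4.46 and 3.20 RPKM in female libraries, against 3.88, 4.69, 6.35, 4.43 and 4.48 RPKM in male libraries. Male replicate 3 was highest and female replicates 1, 2 and 5 were the lowest, with the others overlapping. Its log2 fold change was -0.42 ± 0.14 (SE; edgeR adjusted p = 0.445). Mmp28, which encodes epilysin, had 1.17, 1.45, 1.22, 1.51 and 1.19 RPKM in female libraries, against 1.29, 1.98, 1.92, 1.60 and 1.42 RPKM in male libraries. The sexes overlapped, and its log2 fold change was -0.33 ± 0.14 (SE; edgeR adjusted p = 0.626). Timp3 had -0.13 ± 0.06 (SE; edgeR adjusted p = 0.670) from unique exon reads, which are a small part of its total, and -0.07 ± 0.05 (SE; edgeR adjusted p = 0.852) from total exon reads. Timp1 had -0.19 ± 0.13 (SE; edgeR adjusted p = 0.817), and -0.05 without male replicate 5. Mmp14 had 0.05 ± 0.05 (SE; edgeR adjusted p = 0.855), and 0.03 without male replicate 3.

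The genes with positive values at an unadjusted p under 0.05 were Adamts9 and Mmp12. Adamts9, a versican-cutting protease, had 2.29, 2.23, 2.29, 2.11 and 2.39 RPKM in female libraries, against 2.06, 1.67, 1.73, 2.39 and 1.36 RPKM in male libraries. Male replicate 4 reached the highest female libraries and the other male libraries lay under all of them. The log2 fold change was 0.30 ± 0.12 (SE; edgeR adjusted p = 0.591). Mmp12, which encodes macrophage elastase and overlaps Mmp1b on the other strand, had 0.632, 0.308, 0.683, 0.596 and 0.514 RPKM in female libraries, against 0.369, 0.399, 0.363, 0.523 and 0.313 RPKM in male libraries. Female replicate 2 was the lowest of all 10 libraries, whereas the remaining female libraries were near or above the highest male library. The log2 fold change was 0.47 ± 0.21 (SE; edgeR adjusted p = 0.639). Adgre1, which encodes the macrophage marker F4/80, stood at 2.16–3.22 CPM in female and 1.57–2.54 CPM in male libraries. Its correlation with Mmp12 is among the pairs given below, and the part of macrophages in the Mmp12 difference between the sexes was not tested.

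**Figure D3:**
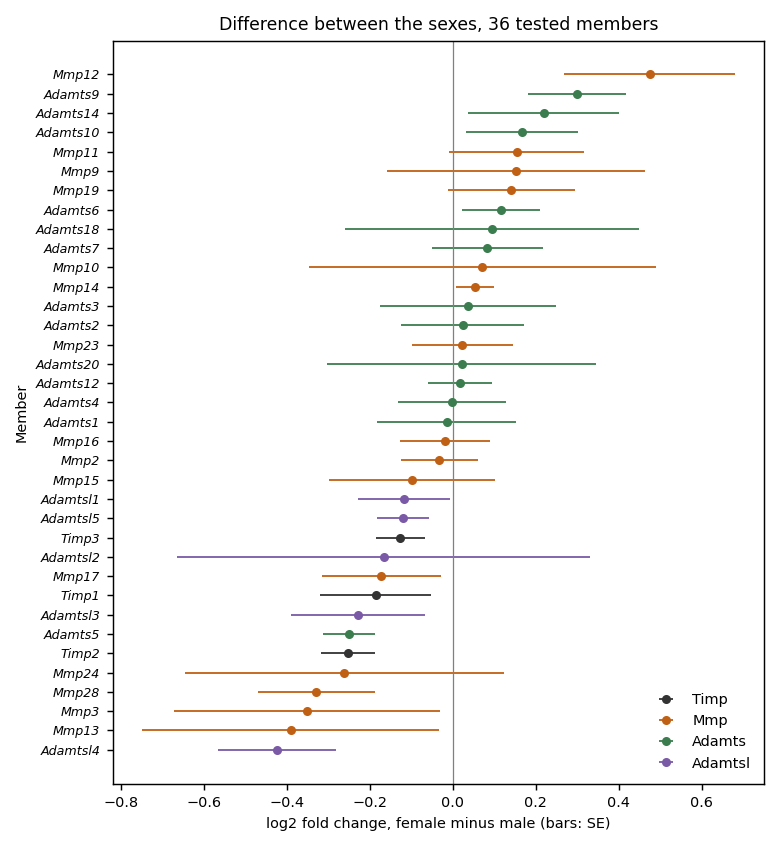
Log2 fold change, female minus male, of the 36 tested genes with bars of 1 SE from edgeR, ordered by value and coloured by family. Values run from 0.47 for Mmp12 at the top to -0.42 for Adamtsl4 at the bottom, and none passed the adjusted threshold.

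These genes varied widely from library to library. Over the 32 tested genes at 1 CPM or more, the median coefficient of variation (CV) of CPM over the 10 libraries was 17.95%, with an interquartile range of 13.3–21.01%. Over all 12201 tested genes at that level the median was 9.46%, with an interquartile range of 6.38–15.6%, and 21 of the 32 lay above its upper end. The steadiest were Mmp14 at 4.48%, Timp3 at 7.86% and Adamtsl5 at 7.98%. The most variable of all 36 were Adamtsl2 at 66.7%, Mmp13 at 46.3%, Mmp10 at 45.7%, Mmp24 at 43.6% and Mmp3 at 39.4%. Counting error alone would give 30.3% for Adamtsl2 and 23.8% for Mmp24, which had few reads, but 11.4% for Mmp13, 6.36% for Mmp10 and 6.85% for Mmp3.

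Mmp10 and Mmp3 encode the stromelysins, which cut proteoglycans and activate other metalloproteinases, and Mmp13 encodes the main interstitial collagenase of the mouse. They belong to a run of 10 Mmp genes within 427 kb of chromosome 9, at chr9:7272514-7699585, of which 4 (Mmp13, Mmp12, Mmp3 and Mmp10) were tested and 6 had between 0 and 61 reads over all libraries. Mmp10 had 7.64, 6.77, 3.94, 3.90 and 4.22 RPKM in female libraries, against 8.98, 7.51, 2.23, 3.95 and 2.49 RPKM in male libraries. Replicates 1 and 2 were high in each sex, and male replicates 3 and 5 were the lowest. Mmp3 had 4.02, 5.46, 2.29, 2.29 and 4.57 RPKM in female libraries, against 5.56, 3.41, 3.08, 3.96 and 7.71 RPKM in male libraries. Here male replicate 5 was the highest library, whereas it was among the lowest for Mmp10. Mmp13 had 1.24, 1.28, 0.518, 0.841 and 0.616 RPKM in female libraries, against 1.43, 1.09, 0.507, 2.04 and 0.809 RPKM in male libraries. Male replicate 4 was highest and replicate 3 was lowest in each sex.

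The highest library was 4.02 times the lowest for Mmp10, 4.02 times for Mmp13 and 3.37 times for Mmp3, and for all of them the sexes overlapped. Their log2 fold changes were 0.07 ± 0.42 for Mmp10, -0.35 ± 0.32 for Mmp3 and -0.39 ± 0.36 for Mmp13 (SE; edgeR adjusted p = 0.985, 0.865 and 0.865). When single libraries were left out, Mmp3 ran from -0.53 to -0.10, the last without male replicate 5, and Mmp13 from -0.57 to -0.10, the last without male replicate 4. The value for Mmp10 ran from -0.11 to 0.38, and turned negative without any of female replicates 1 and 2 and male replicates 3, 4 and 5. Mmp24, a membrane-type metalloproteinase gene with 177 reads in all, had 0.117, 0.152, 0.122, 0.0480 and 0.176 RPKM in female libraries, against 0.0964, 0.129, 0.233, 0.0707 and 0.213 RPKM in male libraries. Adamtsl2 had 0.0732, 0.0507, 0.0490, 0.0375 and 0.0224 RPKM in female libraries, against 0.133, 0.0420, 0.0492, 0.0230 and 0.0208 RPKM in male libraries. The sexes overlapped for each, and male replicate 1 stood apart for Adamtsl2.

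The promoters of the variable genes of chromosome 9 and of the steady Mmp14 are shown because they differ both in spread and in the motifs they hold. The windows are RefSeq's for build GRCm38.p6, 250 bases before to 50 after the annotated start, all on the plus strand, read 5′ to 3′. Capitals mark the AP-1 motif TGANTCA, the element bound by Fos and Jun proteins, and the TATA box letters TATAAA; the Mmp14 window holds neither. The regions are chr9:7502092-7502391 for Mmp10, chr9:7445572-7445871 for Mmp3, chr9:7272264-7272563 for Mmp13 and chr14:54431348-54431647 for Mmp14.
Mmp10: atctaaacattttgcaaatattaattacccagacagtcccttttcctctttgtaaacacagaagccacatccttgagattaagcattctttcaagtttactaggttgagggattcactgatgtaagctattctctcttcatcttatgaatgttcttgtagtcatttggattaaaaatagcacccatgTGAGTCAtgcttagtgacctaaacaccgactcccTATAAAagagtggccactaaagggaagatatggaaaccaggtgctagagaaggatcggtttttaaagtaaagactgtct
Mmp3: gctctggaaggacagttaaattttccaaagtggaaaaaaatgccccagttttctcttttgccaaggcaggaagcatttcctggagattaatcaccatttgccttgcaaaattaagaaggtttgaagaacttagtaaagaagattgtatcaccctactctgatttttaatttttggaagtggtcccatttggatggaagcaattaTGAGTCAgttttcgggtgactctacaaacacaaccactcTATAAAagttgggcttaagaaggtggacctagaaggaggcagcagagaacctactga
Mmp13: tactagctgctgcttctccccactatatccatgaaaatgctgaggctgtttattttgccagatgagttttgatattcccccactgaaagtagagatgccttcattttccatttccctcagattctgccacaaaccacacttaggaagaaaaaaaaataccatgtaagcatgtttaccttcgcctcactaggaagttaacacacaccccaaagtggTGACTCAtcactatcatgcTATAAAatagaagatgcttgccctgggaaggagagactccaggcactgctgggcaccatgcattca
Mmp14: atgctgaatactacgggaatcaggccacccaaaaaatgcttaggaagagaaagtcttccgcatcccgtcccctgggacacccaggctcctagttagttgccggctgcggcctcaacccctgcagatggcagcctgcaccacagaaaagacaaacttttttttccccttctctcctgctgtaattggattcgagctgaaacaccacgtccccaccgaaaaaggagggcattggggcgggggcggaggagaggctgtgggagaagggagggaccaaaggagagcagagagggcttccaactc

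In the Mmp10 window TGAGTCA began 63 bases before the start and TATAAA 29 bases before it. In the Mmp3 window the same letters began 46 and 7 bases before the start, and in the Mmp13 window TGACTCA and TATAAA began 35 and 16 bases before it. The Mmp14 window had 2 copies of the GC box GGGCGG and a GC content of 56.0%. RefSeq windows were at hand for 36 of the 51 genes. Read on both strands, TGANTCA was found in 7 of these 36 (7.81% of all 32851 windows), TATAAA in 11 (13.6% of all windows) and GGGCGG in 21 (35.7% of all windows). The 7 genes with TGANTCA were Mmp1a, Mmp1b, Mmp3, Mmp7, Mmp10, Mmp13 and Mmp20, which are all in the chromosome 9 run; Mmp8, Mmp12 and Mmp27 of that run had none. The median GC content was 62.2% over the 36 windows and 52.7% over all windows. The windows of Adamts20 and Mmp11 lie 61068 and 3994 bases from the gene start in the deposited table, and so may belong to other transcripts.

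Of the 21 genes with a window and at least 1 CPM, the 3 with TGANTCA had CVs of 39.4–46.3% and the 18 without it 4.48–29.2%, with medians of 45.7% and 18.1%. For TATAAA the 4 genes with it, Adamts1 among them, had 18.2–46.3% and the 17 without it 4.48–29.2%. For GGGCGG the 15 genes with it had 4.48–24.3% and the 6 without it 9.24–46.3%. The 3 genes with TGANTCA are neighbours and were also among the lower ones, at 2.77–8.89 CPM. Their promoters were shown with these CVs known, and no test is given for this comparison. Whether the motif bears on the spread was not tested. Mmp9, at a CV of 37.2%, is not among the 21.

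**Figure D4:**
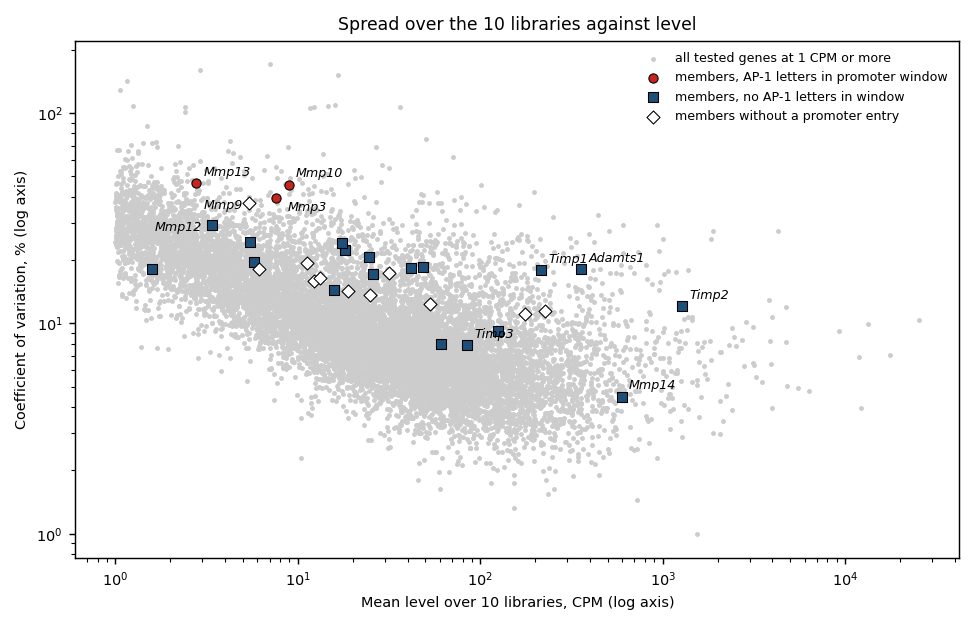
Coefficient of variation over the 10 libraries (percent, log axis) against mean CPM (log axis) for all tested genes at 1 CPM or more in grey and for the protease and inhibitor genes as symbols, by whether their promoter window holds the AP-1 letters. Mmp13, Mmp10 and Mmp3 lie at 39.4–46.3%, and Mmp14 lies at 4.48% at a mean of 598 CPM.

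Libraries differed in the direction they departed from the others. On the scale of log2(CPM + 0.5), with each gene's mean over the 10 libraries taken off, the median over the 32 genes at 1 CPM or more was 0.13 in female replicate 2 and -0.09 in female replicate 3, and 0.17 in male replicate 1 and -0.14 in male replicate 3. In male replicate 3 the level was lowest for 11 of the 36 tested genes, and female replicate 2 and male replicate 1 were each highest for 8. Over all tested genes those shares were 12.02% lowest in male replicate 3, 12.1% highest in female replicate 2 and 11.5% highest in male replicate 1.

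**Figure D5:**
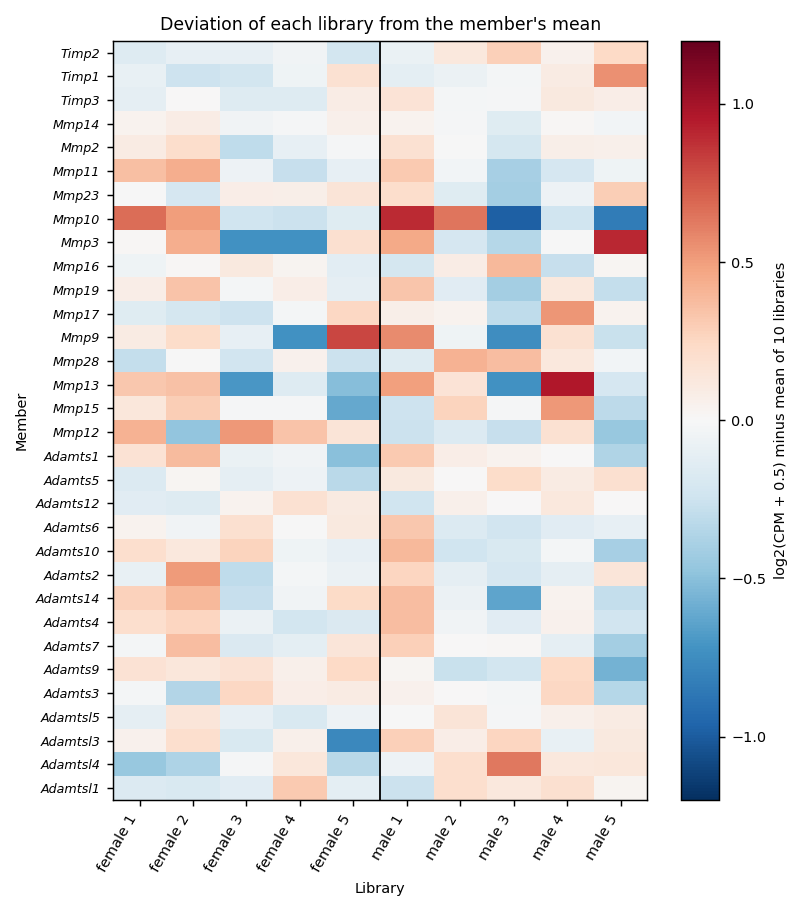
Deviation of each library, as log2(CPM + 0.5), from the gene's mean over the 10 libraries for the 32 genes at 1 CPM or more, with female libraries left of male libraries and genes ordered by family. Mmp10, Mmp3, Mmp9 and Mmp13 hold strong colours in both sexes, Mmp14 is nearly white throughout, and the column of male replicate 3 is below the mean for 22 of the 32 genes and above it for Timp2 and Adamtsl4.

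For 18 pairs of neighbours, relatives, known partners or a gene beside a marker of another cell type, levels were correlated over the 10 libraries on the log2(CPM + 0.5) scale, with permutation tests of 100000 resamples. Where 2 libraries were left out, they were those farthest from the median of the pair's first gene. Values with each sex's mean taken off were permuted within each sex over every order, and values with libraries left out over every order. None of the 18 passed an adjusted p of 0.05. The closest were Adamts1 with Adamts4, both of which cut proteoglycans (r = 0.82, permutation p = 0.00338, adjusted 0.0586; rho = 0.85, permutation p = 0.00299, adjusted 0.0538). Without female replicate 5 and male replicate 5 r was 0.86, and with each sex's mean taken off it was 0.82. Mmp14 and its partner Timp2 gave a negative value (r = -0.77, permutation p = 0.00651, adjusted 0.0586; rho = -0.75, permutation p = 0.0175, adjusted 0.105). Without female replicate 2 and male replicate 3 r was -0.65, and with each sex's mean taken off it was -0.76. With unique gene reads, which add introns, r was -0.38 (permutation p = 0.278, adjusted 0.424).

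Mmp2 and its activator Mmp14 gave r = 0.75 (permutation p = 0.0110, adjusted 0.0658) and rho = 0.75 (permutation p = 0.0172, adjusted 0.105). Without female replicate 3 and male replicate 3 r was 0.61, and with each sex's mean taken off it was 0.90, with an adjusted permutation p of 0.0100. With 5 libraries a sex, no value within a single sex is given. The neighbours Mmp3 and Mmp10 gave r = 0.13 (permutation p = 0.714, adjusted 0.803; rho = 0.37, permutation p = 0.296, adjusted 0.485), and r was 0.57 without female replicate 4 and male replicate 5. Mmp10 and Mmp13 gave r = 0.58 (permutation p = 0.0794, adjusted 0.238; rho = 0.66, permutation p = 0.0449, adjusted 0.202), and r was 0.46 without female replicate 1 and male replicate 1. Mmp12 and Adgre1 gave r = 0.68 (permutation p = 0.0313, adjusted 0.141; rho = 0.53, permutation p = 0.122, adjusted 0.313), r was 0.65 without female replicates 2 and 3, and 0.48 with each sex's mean taken off.

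Over all 496 pairs of the 32 genes the median r was 0.09, with an interquartile range of -0.31 to 0.43, beside -0.29 to 0.29 and a median of 0.00 over all pairs of the 12201 genes. In 8 pairs, or 1.61%, r was above 0.8, beside 0.906% of all pairs, and in 5 pairs it was below -0.8, beside 0.854% of all pairs. The pairs share the same 10 libraries, and this is a description.

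Reads in introns, which in total RNA include those of unspliced RNA, differed widely between these genes. They are given as a share of unique gene reads and are not scaled for intron length. At 1 CPM or more the median was 10.1% over these genes and 16.1% over all tested genes. The first median counts Timp1, Timp3 and Mmp19 at 0 and would be higher without them, so the gap between the medians is not a measured difference. Adamtsl1, Adamts12 and Adamts6 span 914, 282 and 209 kb, whereas Adamts1, Mmp3 and Mmp10 span 9.29, 10.2 and 7.89 kb. Adamts10 and Mmp14 span 29.6 and 13.8 kb, and the part of gene length was not tested. Among the genes at 1 CPM or more, Adamts6 had 65.3% ± 4.41 (SD, n = 10), and Adamts3, Adamtsl1, Mmp16, Adamts12, Adamtsl3, Adamts10 and Adamts2 had between 31.2% and 52.6%. Of the tested genes below 1 CPM, Adamts20, Adamts18 and Mmp24 had 80.0%, 73.4% and 53.2%. Mmp14 had 26.1% ± 0.532 (SD, n = 10) although it is among the most abundant. Adamts1, Mmp3, Mmp13, Mmp10, Mmp9 and Mmp2 were at the low end, with 1.92%, 2.22%, 2.41%, 3.17%, 3.21% and 3.60%. Timp1, Timp3 and Mmp19, which share their loci with other genes, had 0 unique intron reads and cannot be placed on this scale.

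Other genes of matrix proteolysis, of the substrates and of the regulators were counted in the same fit. Of 38 related protease and inhibitor genes 34 were tested and 0 passed, with 20 negative and 14 positive values, a median log2 fold change of -0.03 and 4 at an unadjusted p under 0.05. The smallest p-values were those of Cst3, the cysteine protease inhibitor cystatin C (log2 fold change -0.23 ± 0.07 SE; edgeR adjusted p = 0.382; 133 ± 8.69 RPKM in female and 156 ± 15.6 RPKM in male libraries, SD, n = 5 each), and of the membrane proteases Adam12 (0.21 ± 0.08 SE; edgeR adjusted p = 0.547) and Adam17 (-0.12 ± 0.05 SE; edgeR adjusted p = 0.598). Of 25 substrate genes 23 were tested and 0 passed, with 12 negative and 11 positive values, a median of -0.02 and 2 at an unadjusted p under 0.05. The smallest p-values were those of Col2a1, the cartilage collagen (-1.39 ± 0.45 SE; edgeR adjusted p = 0.481), Reln, the secreted glycoprotein reelin (-0.53 ± 0.22 SE; edgeR adjusted p = 0.596), and Thbs1, thrombospondin (-0.12 ± 0.06 SE; edgeR adjusted p = 0.680).

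All 22 genes of the regulator list were tested and 0 passed, with 8 negative and 14 positive values, a median log2 fold change of 0.04 and 2 at an unadjusted p under 0.05. Etv4, an Ets factor, had 0.19 ± 0.07 (SE; edgeR adjusted p = 0.530), Nfkb1 0.12 ± 0.05 (SE; edgeR adjusted p = 0.662) and Fosl2, an AP-1 subunit, -0.09 ± 0.04 (SE; edgeR adjusted p = 0.700). Of the AP-1 subunits, Fos averaged 2.76 ± 0.633 RPKM in female and 2.62 ± 0.553 RPKM in male libraries, and Jun 59.4 ± 4.25 RPKM in female and 57.6 ± 6.15 RPKM in male libraries (SD, n = 5 each).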

How the data were processed

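Per the labels' protocols, total RNA was depleted of ribosomal RNA, made into strand-marked libraries and read on a NextSeq 500; the submitters' processing notes name mm10 as the build, and the aligner and counting rules are not stated in the sources used. The authors deposited whole-number read counts per gene and library, not normalized, with exon lengths and positions, and, per the file headers, the signed fold (a score with no log scale) and the false discovery rate, an adjusted p-value, of their own EDGE test. A further 100 value columns of the libraries were left unused.

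The families, gene lists, pairs, naming rule and tests were chosen with earlier results of these data known. Unique exon reads were filtered with filterByExpr (minimum count 10), scaled by TMM and fitted with edgeR 4.0.16 in R 4.3.3 (robust quasi-likelihood, sex as the only term, two-sided); p-values were adjusted over all 13615 tested genes and called under 0.05. SEs came from the log2 fold change over the root of the F statistic. RPKM used the deposited exon lengths. DESeq2 1.42.0, other scalings, filters and read classes, a replicate block and leaving out each library were alternatives. Permutation tests used Python 3.11.15 and scipy 1.17.1. Positions matched GENCODE M21 for 47 of the 51 genes. Values in every library are given for the Timp genes (Timp4 by its range), the 12 genes of highest RPKM, those with an unadjusted p under 0.05 and the 5 of highest CV (22 genes). The scripts were tested on simulated data. Libraries of a sex differed by more than sampling noise, with a chi-square of 7.02 to 33.4 per gene.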

Additional observations from a re-analysis of the deposited data

Results flagged for a closer look

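Among 42 sets of 5 libraries of a sex, 3 had 1 library well apart from the rest. Chance alone gives about 1 in 20 such sets where genes are not chosen by their spread. Some of the genes in these sets, Adamtsl2 among them, were named for a high CV over the same libraries. That rate is therefore no measure for these sets. Timp1 stood at 309.9 CPM in male replicate 5, where the other male libraries had 195–227 CPM. Adamts6 stood at 66.1 CPM in male replicate 1, where the other male libraries had 45.0–49.3 CPM. Adamtsl2 stood at 1.07 CPM in male replicate 1, where the other male libraries had 0.166–0.394 CPM; without that library its log2 fold change, female minus male, was 0.48, against -0.17 with all 10.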

How the results depend on the processing

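The count of 0 among the 36 tested genes held under 17 of 19 alternatives. With no filter on low counts 2 passed (Timp2 and Adamts5, of 50 tested), and with the replicate number as a block 1 passed (Adamtsl4, edgeR adjusted p = 0.0476). Over all genes 16 passed, against 46 with no filter, 87 with DESeq2 and 79 with the replicate block; leaving out 1 library gave 10 to 23, with 10 lowest, without female replicate 3. The labels tie a replicate number to no shared animal, batch or day, and not every pair of same-numbered libraries passed the mark set for pairing, so the numbers were not used as pairs: same-numbered female and male libraries correlated over 0.1 in 4 of 5 cases (0.0303 to 0.360), and 5 of 10 libraries correlated best with their own number, a hint from the data and not from the design. Leaving out 2 genes that hold ribosomal RNA reads, an alternative chosen after seeing the data, changed neither count. The cause of these changes was not tested.

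Of the 18 pairs 0 passed, against 1 with each sex's mean taken off (Mmp2 with Mmp14), 2 with unique gene reads (that pair and Adamts1 with Adamts4), and 0 to 3 when 1 library was left out. There were 3 without female replicate 3 (these and Mmp14 with Timp2) and 1 without female replicate 5. Genes at 1 RPKM or more numbered 28 by total and 30 by unique exon reads. Total reads are scaled to larger library sizes, which lowers the RPKM of a gene whose own reads stay the same. Mmp13, with all its reads unique, had 0.891 RPKM by total and 1.04 RPKM by unique exon reads. Of 397 recomputed log2 fold changes 19 changed sign: Adamtsl2 to 0.0498 with unique gene reads, and the rest on leaving out 1 library. These were Adamts1 (-0.124 to 0.0891, without female replicate 3 or 5 or male replicate 1), Adamts12 (-0.0366 to 0.0555, without female replicate 4 or 5 or male replicate 1) and Adamtsl2 (-0.38 to 0.48, without female replicate 5 or male replicate 1). Likewise Mmp10 (-0.11 to 0.38, without female replicate 1 or 2 or male replicate 3, 4 or 5), Mmp2 (-0.0954 to 0.0340, without female replicate 3 or male replicate 1) and Mmp23 (-0.0626 to 0.110, without female replicate 5 or male replicate 2 or 3) changed sign. Mmp24 and Adamtsl2 had only 177 and 109 reads over the 10 libraries, and the 15 untested genes at most 93, so no difference between the sexes is given for those 15.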

Other observations

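In the authors' deposited table, whose signed fold is negative where males are higher, the smallest false discovery rate among the 51 genes was 0.342, for Mmp28 with a fold of -1.33. In the same deposited table Timp2 had a fold of -1.18 (false discovery rate 0.651) and Adamts5 a fold of -1.19 (false discovery rate 0.667).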
